A study of Mus musculus with 6 samples.

Results

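The cytosolic ribosomal protein genes comprised 80 of the 41388 genes counted in this RNA-seq series. They were chosen by name, as the protein-coding genes whose mouse symbol is Rpl or Rps with a number and at most one of the letters a, x or l, together with Rplp0, Rplp1, Rplp2 and Rpsa. Of the 80 genes, 49 encode proteins of the large subunit and 31 proteins of the small subunit. Pseudogenes and the S6 kinases were left out. Expression was measured in TICs, the CD24+CD90+CD45- tumor-initiating cells, and in non-CD24+CD90+ tumor cells, the control tumor cells. Both populations were sorted from mammary tumors of mice of the strain FVB/N-TgN(MMTVPyVT)634Mul/J at 12 weeks of age. The donors of both populations were transgenic for polyoma middle T antigen, driven by the MMTV promoter, which is active in mammary epithelium. Each group had 3 samples, each a pool of 4 cell sorts, and 120 ng of total RNA entered each library. The series describes the control cells as lacking both markers, whereas the sorting gate of the study took CD45- cells negative for either or both.

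The ribosome is built from ribosomal RNA and, the stalk aside, a single copy of each of these proteins. Cells degrade the excess of any of them, and growth signals through MYC and mTOR set their output. Their mRNAs are among the most abundant of dividing cells and begin with a stretch of pyrimidines, the 5′ terminal oligopyrimidine (TOP) motif, by which mTOR controls their translation. The genes are also known for their many processed pseudogenes, which are mRNA copies inserted elsewhere in the genome.

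Total counts per sample ranged from 6781239 to 9100552, so that 3 counts correspond to 0.33 to 0.442 CPM (counts scaled to the depth of the sample), a floor that covers counting error only. Over all genes kept, TIC replicate 3 had the lowest mean correlation with the other samples, 0.701 against 0.732 to 0.774. Thy1, the gene of CD90, had 825, 1775 and 533 counts in TICs and 520, 500 and 151 in the other tumor cells. Its log2 fold change of 1.25 had an interval from 0.28 to 2.23, and its adjusted p of 0.35 by exactTest missed the threshold. Cd24a, the gene of CD24, had 4001, 2701 and 2699 counts in TICs and 2754, 3565 and 4209 in the other tumor cells. The log2 fold change of Cd24a was -0.34, with an interval from -0.93 to 0.24. Summed fibroblast markers reached 7184 to 9871 CPM in TICs and 2798 to 3134 CPM in the other cells, and 4 of 7 passed the test as higher in TICs. Summed pericyte markers ranged from 780 to 1183 CPM in TICs and from 380 to 481 CPM in the other cells, and 1 of 6 passed. Summed markers of the mammary epithelium reached 6016 to 9336 CPM in TICs and 9851 to 11117 CPM in the other cells, with 0 of 10 called by exactTest and 2 by DESeq2. Summed endothelial markers reached 148 to 506 CPM in TICs and 119 to 121 CPM in the other cells, with 0 of 6 called and 4 at an unadjusted p below 0.05 by exactTest. Summed leukocyte markers reached 26.1 to 75.2 CPM in TICs and 13.4 to 18.8 CPM in the other cells, and 1 of the 2 that were kept passed the test as higher in TICs, although Cd3e and Adgre1 had no count in any sample. Summed basal or myoepithelial markers overlapped between groups, at 570 to 702 CPM in TICs and 558 to 1237 CPM in the other cells, with 0 of 6 called. Summed erythroid markers also overlapped, at 15.4 to 165 CPM in TICs and 26.2 to 104 CPM in the other cells, with 0 called of the 3 kept. The part of cell composition in the values below was not tested.

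The deposited counts of the ribosomal protein genes spanned a wide range, up to a mean of 41861 for Rplp1. Averaged over the 6 samples, 37 of the 80 genes had at least 1000 counts and 20 had at least 10000, while 30 had fewer than 100 and 11 fewer than 10. No count was recorded in any sample for 4 genes, Rpl29, Rpl3l, Rpl10l and Rpl39l. The last 3 are retrogene or tissue-restricted paralogs of Rpl3, Rpl10 and Rpl39, whereas Rpl29 is a general component of the large subunit. The 10 most abundant members held 53.3% of all member counts. Only reads with a single place in the genome had been counted, so the sequence each gene shares with others was measured. Of the 80 genes, 77 had at least one stretch of 50 bases in their main transcript that also occurs in an annotated pseudogene, with a median of 8 such pseudogenes per gene and up to 121 for Rpl7a. In 79 genes the coding sequence matched a pseudogene over at least 90% of its length, and in 48 genes the closest pseudogene was at least 99% identical.

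**Figure D1:**
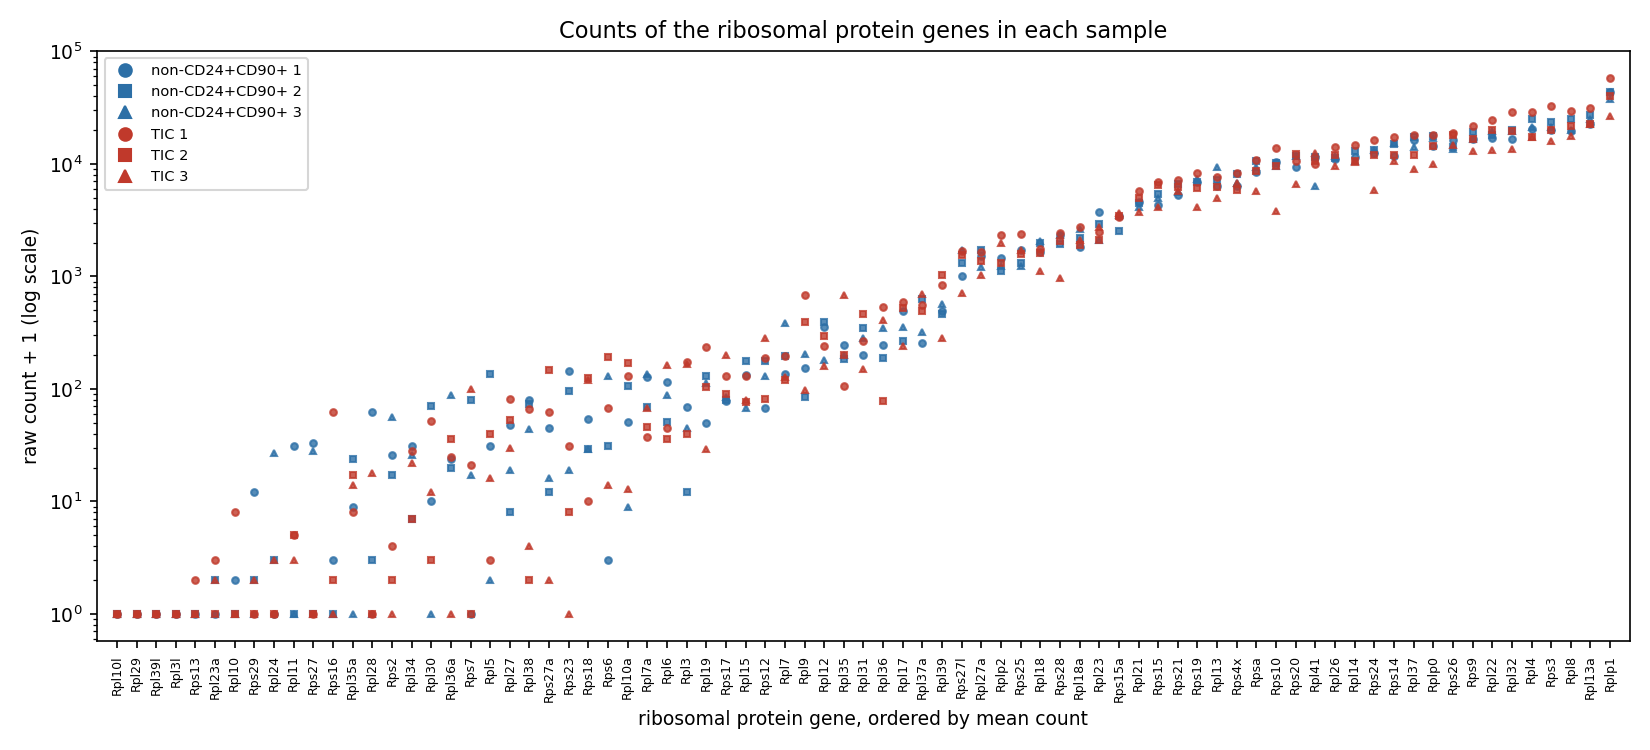
Raw count plus 1 (log axis) of 77 of the 80 ribosomal protein genes in each of the 6 samples, with genes ordered by mean count. TICs are red, non-CD24+CD90+ tumor cells blue, and marker shapes stand for replicates 1 to 3; the scarce genes on the left scatter widely between replicates, while Rplp1 on the right lies between 26908 and 58641 counts.

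The following coding stretches show how near the copies lie for genes with few and with many counts. They are taken from GENCODE M21 transcripts on GRCm38, 60 bases each, and capitals mark bases at which gene and closest pseudogene differ. Positions count from the A of the start codon. For Rps13 and Rpl5 bases 1 to 60 are shown, for Rpl24 bases 293 to 352.
Rps13: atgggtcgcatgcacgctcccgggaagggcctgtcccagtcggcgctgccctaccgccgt
Rps13-ps2: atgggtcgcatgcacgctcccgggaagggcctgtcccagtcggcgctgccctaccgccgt
Rpl5: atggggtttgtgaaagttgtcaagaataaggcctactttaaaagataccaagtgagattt
Gm15500: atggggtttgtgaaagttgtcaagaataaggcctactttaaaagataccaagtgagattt
Rpl24: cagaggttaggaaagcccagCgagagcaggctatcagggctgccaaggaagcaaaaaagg
Gm9385: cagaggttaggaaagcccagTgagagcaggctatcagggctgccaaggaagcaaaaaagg

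Rps13 (chr7:116331505-116334195, minus strand), a small subunit protein, had 1 count in TIC replicate 1 and 0 in the other 5 samples. The pseudogene Rps13-ps2 (chr7:88530446-88530898, minus strand) is 100% identical over the 453 coding bases and had 694, 820 and 1065 counts in the control tumor cells and 1679, 1811 and 727 in TICs. Rpl5 (chr5:107900502-107909005, plus strand), which carries 5S rRNA into the large subunit, had 30, 136 and 1 counts in the control tumor cells and 2, 39 and 15 in TICs. Its copy Gm15500 (chr7:114705217-114706235, minus strand), identical over 891 coding bases, had 11578 to 17483 counts in every sample. Rpl24 (chr16:55966275-55971435, plus strand), a surface protein of the large subunit, had 0, 2 and 26 counts against 0, 0 and 2. Gm9385 (chr9:116040593-116041064, minus strand) is 99.8% identical to it and had 3778 to 7804 counts. In these 3 pairs nearly all counts lay at the pseudogene.

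Rpl13 kept its counts beside a copy just as near, while the closest copy of Rpl8 is far less similar. The stretches below show bases 1 to 60 of Rpl13 and 79 to 138 of Rpl8.
Rpl13: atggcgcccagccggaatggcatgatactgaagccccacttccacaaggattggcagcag
Gm12918: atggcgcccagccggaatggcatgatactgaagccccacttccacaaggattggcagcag
Rpl8: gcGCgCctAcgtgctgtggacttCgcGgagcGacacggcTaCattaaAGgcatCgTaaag
Gm14294: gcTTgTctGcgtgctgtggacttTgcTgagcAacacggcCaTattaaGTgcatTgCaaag

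Rpl13 (chr8:123102350-123105244, plus strand) had 4983 to 9334 counts, and its 100% identical copy Gm12918 (chr4:10848420-10849055, plus strand) had 0 to 9. Rpl8 (chr15:76904078-76906314, plus strand), a core protein near the peptidyl transferase center, had 17837 to 29727 counts, and Gm14294 (chr2:179364293-179365043, plus strand), 74.4% identical, had none in any sample. Identity to a copy therefore went with low counts in some genes and not in others.

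Across the members, genes with more sequence of their own tended to have more counts. For each gene the share of 50-base windows of the coding sequence found in no other annotated gene was computed. It was 0% in 29 genes, whose median was 48.5 counts, and above 0% but under 20% in 28 genes, whose median was 1136 counts. The 9 genes with 20% to under 50% had a median of 12221 counts and the 14 with 50% or more a median of 12460. Among the 14, only the paralogs Rpl3l, Rpl10l and Rpl39l had fewer than 100 counts. Spearman's rho between this share and the mean count was 0.445 over the 80 genes, which share the same 6 libraries, and 0.46 with 100-base windows of the whole transcript. There were exceptions in both directions, since 5 of the 29 genes at 0% had at least 1000 counts. Of the 30 genes under 100 counts, 25 had a pseudogene at least 99% identical, against 12 of the 37 genes with at least 1000 counts. What the removal of non-unique reads contributed to each count was not tested, and a low count in these files is not a measure of how much of that mRNA the cells contained.

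**Figure D2:**
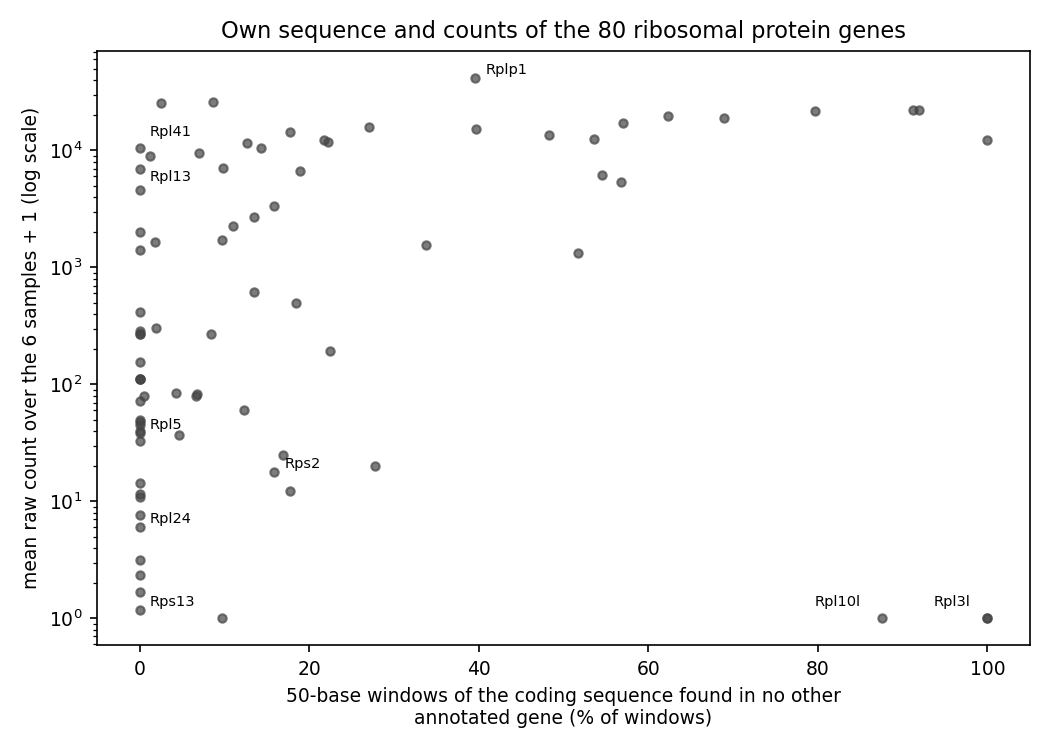
Mean raw count plus 1 over the 6 samples (log axis) of each of the 80 ribosomal protein genes against the share of 50-base windows of its coding sequence that no other annotated gene holds (%). Each point is 1 gene; genes at 0% range from below 1 count (Rps13) to above 10000 (Rpl41), and the only genes past 50% with fewer than 100 counts are Rpl3l, Rpl10l and Rpl39l.

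A gene entered the test if at least 3 samples exceeded 1 CPM, and 67 of the 80 members did. The 13 others were Rpl10, Rpl10l, Rpl11, Rpl23a, Rpl24, Rpl28, Rpl29, Rpl39l, Rpl3l, Rps13, Rps16, Rps27 and Rps29. Their counts stayed at or below 61 in every sample. Rpl28 had 61, 2 and 0 counts in the control tumor cells and 0, 0 and 17 in TICs. Rps16 had 2, 0 and 0 against 61, 1 and 0. Rps27 had 32, 0 and 27 against 0, 0 and 0, and Rps29 had 11, 1 and 0 against 0, 0 and 1. Rpl10 reached 7 counts in TIC replicate 1 and Rpl23a 2 counts, and at most 1 elsewhere. No fold change is given for the 13 genes.

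No ribosomal protein gene passed the test of TICs against the other tumor cells. Of the 67 genes, 0 were called by exactTest of edgeR at an adjusted p below 0.1, where 1.55% of all 12192 genes kept were called, 1.36% as higher and 0.189% as lower in TICs. The lowest adjusted p was 0.56, and 1 member had an unadjusted p below 0.05, against 7.85% of all genes. The quasi-likelihood test also called 0 members, with 0 at an unadjusted p below 0.05 (7.92% of all genes), and it called 0.41% of all genes. DESeq2 called 0 members, with 6 at an unadjusted p below 0.05 (9.24% of all genes), and 2.5% of all genes. The median log2 fold change of the 67 members, TIC over non-CD24+CD90+, was -0.14, beside -0.01 for all genes kept. It was positive in 23 members (34.3%) and negative in 44, whereas 49.7% of all genes were positive. These counts are a description, since the members of one complex are not independent of each other.

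In the abundant members the intervals were narrow enough to bound the difference. The 40 members with a mean of at least 50 TMM-normalized CPM had log2 fold changes from -0.52 to 0.44 with a median of -0.15. Their standard errors ranged from 0.262 to 0.489. These rest on dispersions shrunk toward a value common to all genes kept, so they are not the scatter of a gene's own samples alone. In 29 of the 40 the 95% interval lay within a 2-fold change in either direction, and in all 40 it included 0. The 11 others were Rpl13, Rpl17, Rpl18, Rpl23, Rpl37, Rpl37a, Rpl39, Rplp2, Rps10, Rps24 and Rps28. The 27 members kept below 50 CPM had standard errors from 0.558 to 2.02, and in 0 of them did the interval lie within a 2-fold change. Among them the highest sample was a median of 6.99 times the lowest, leaving out the 6 genes with a sample at 0, against 1.76 times in the 40 abundant genes. In the scarce members the intervals therefore did not bound the difference to 2-fold.

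**Figure D3:**
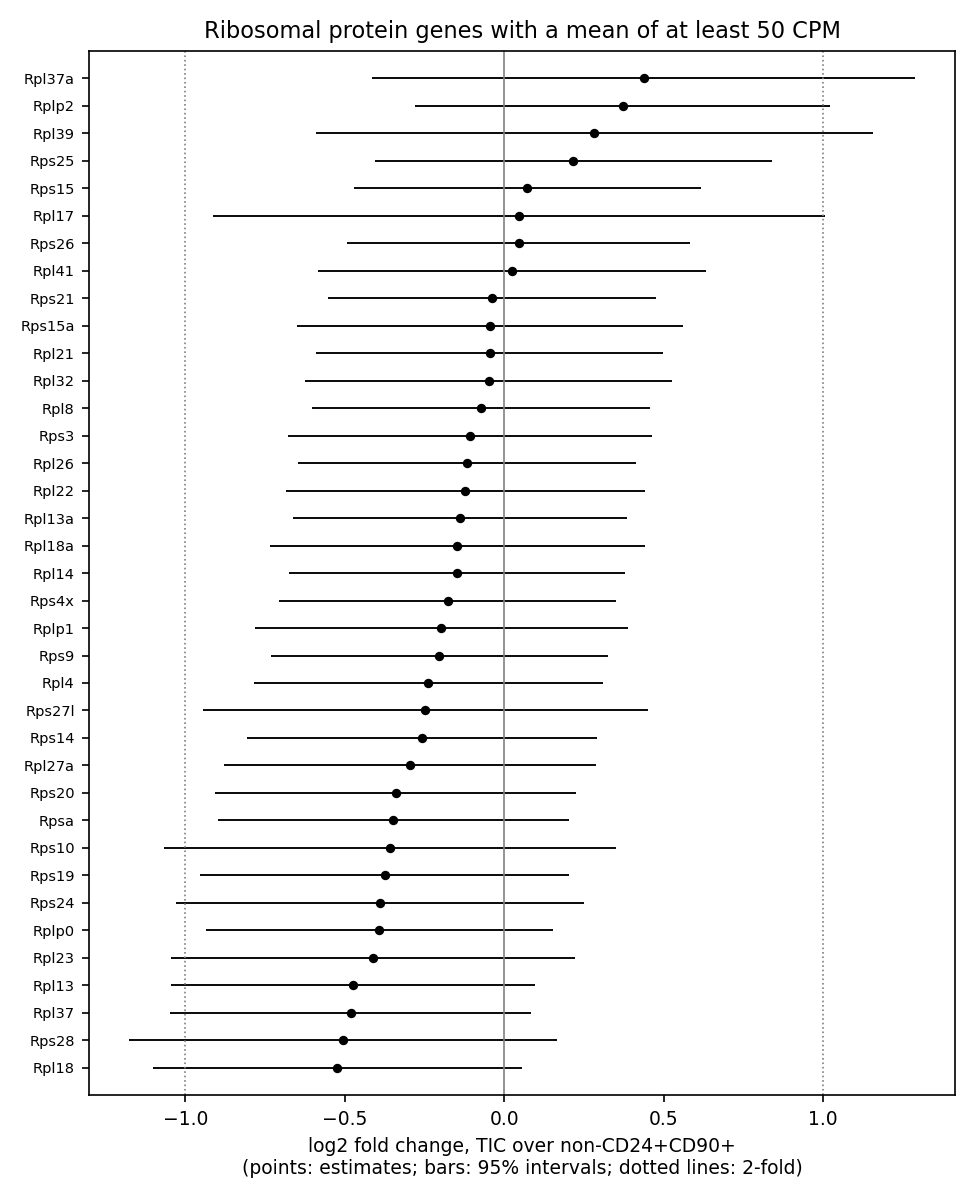
Log2 fold change, TIC over non-CD24+CD90+ tumor cells (x axis), of 37 of the 40 ribosomal protein genes with a mean of at least 50 CPM, ordered by value. Points are edgeR estimates from 3 against 3 samples, bars are 95% intervals and dotted lines mark a 2-fold change; every interval includes 0, from Rpl18 at -0.52 to Rpl37a at 0.44.

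Among abundant members, the lowest fold changes included those of Rpl18, Rps28, Rpl37 and Rpl13. Rpl18, a large subunit protein mutated in Diamond-Blackfan anemia, had 239, 227 and 298 CPM in the control tumor cells and 194, 190 and 147 CPM in TICs. The groups did not overlap, and its log2 fold change of -0.52 ± 0.296 (SE of the fit, n = 3 per group) had an adjusted p of 0.759 by exactTest. Rpl37, which can bind MDM2, had 2377, 1981 and 2017 CPM against 1978, 1402 and 1186 CPM, and TIC replicate 1 was just below the lowest control. Rps28 and Rpl13 overlapped between groups. Rps28 had 340, 220 and 337 CPM against 266, 238 and 127 CPM, and Rpl13 had 934, 823 and 1335 CPM against 841, 729 and 657.5 CPM. In each of these genes TIC replicate 3 was the lowest of the 6 samples.

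The highest fold changes among abundant members included those of Rpl37a, Rplp2, Rpl39 and Rps25, which all overlapped between groups. Rpl37a had 37.1, 71.6 and 46.1 CPM in the control tumor cells and 61, 57.5 and 91.3 CPM in TICs, a log2 fold change of 0.44 with an interval from -0.41 to 1.29. Rpl39, a small basic protein of the exit tunnel, had 72.4, 52 and 81.5 CPM against 92, 120.8 and 37.6 CPM, so that TICs held both its highest and its lowest value. Rps25, which takes part in initiation at viral internal ribosome entry sites, had 252, 148 and 178 CPM against 262, 183 and 227 CPM.

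Compared per kilobase of main transcript, the highest levels included those of Rplp1 at 10506 CPM per kilobase, Rpl32 at 4747, Rpl8 at 3268 and Rpl13a at 3031. The full transcript length was used, without correction for sequence shared with other genes. The log2 fold changes of these genes lay between -0.20 (Rplp1) and -0.05 (Rpl32). Rpl8 had 2869, 2837 and 2847 CPM in the control tumor cells and 3267, 2514 and 2354 CPM in TICs. The control values nearly coincided, and the TIC values lay on both sides of them. Rpl13a, also known for a role in interferon-dependent translational silencing, had 3334, 3084 and 3558 CPM against 3440, 2648 and 2973 CPM. Rpl32 had 2413, 2266 and 2808 CPM against 3161, 2288 and 1789 CPM. In Rpl8, Rpl32 and Rplp1 alike TIC replicate 1 was the highest and TIC replicate 3 the lowest sample.

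The stalk of the large subunit recruits the translational GTPases and is formed by Rplp0 with Rplp1 and Rplp2 on a base shared with Rpl12. All 4 genes were kept and 0 were called by exactTest, with the lowest adjusted p at 0.918. Rplp0 had 2106, 2004 and 2433 CPM in the control tumor cells and 1970, 1700 and 1316 CPM in TICs, a log2 fold change of -0.39 ± 0.278 (SE) with no overlap between groups. Rplp1 had 6421, 4991 and 5384 CPM against 6445, 4662 and 3550 CPM. Rplp2 went the other way in its estimate, with 211, 127 and 178 CPM against 255.5, 152 and 260 CPM and a log2 fold change of 0.37 with an interval from -0.28 to 1.02. Per kilobase, Rplp1 stood at 10506, Rplp0 at 1415 and Rplp2 at 205 CPM. Of the 50-base windows of their main transcripts, 40%, 58.2% and 69.3% were found in no other annotated gene. The levels were not corrected for this, so they do not compare the amounts of these mRNAs. Rpl12 was scarce, with 352, 393 and 179 counts against 242, 295 and 159, and a coding sequence without a 50-base window of its own.

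In the 5S particle, which delivers 5S rRNA to the ribosome and restrains MDM2 when ribosome assembly fails, Rpl11 had 30, 0 and 0 counts in the control tumor cells and 4, 4 and 2 in TICs. Rpl5 had a log2 fold change of -1.56 with an interval from -4.95 to 1.83. Neither gene could be compared at these counts. The identical copy Gm15500 of Rpl5 was tested as a gene of its own and had a log2 fold change of 0.02 ± 0.266 (SE), with an interval from -0.5 to 0.54. Gm10288, 99.8% identical to Rpl11, had 1365, 2019 and 2081 counts against 2440, 2028 and 739, a log2 fold change of -0.27 with an interval from -1 to 0.46. Of the 9 genes at the peptide tunnel and its exit, 8 were kept with log2 fold changes from -0.24 to 0.56, 4 of them positive.

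In the small subunit the 5 genes at the mRNA entry and decoding site were all kept and 0 were called. Rps2 had the lowest p of all members, with 25, 16 and 55 counts in the control tumor cells and 3, 1 and 0 in TICs. The groups did not overlap. Its log2 fold change of -4.74, with an interval from -8.32 to -1.15, had an unadjusted p of 0.037 and an adjusted p of 0.56 by exactTest, and it rests on at most 55 counts per sample. Rps2 passed the filter through the control samples alone, in which it is high, so that the filter had a part in this difference, and it was not kept when any control sample was left out. Its closest pseudogene, Rps2-ps13, is 99.2% identical. Rps23, whose proline hydroxylation tunes decoding accuracy, had 142, 94 and 18 counts against 30, 7 and 0. The 5 genes of the mRNA exit and platform had log2 fold changes from -0.51 to 0.05 with 0 called.

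Rps6, the substrate of the S6 kinases and the usual readout of mTOR activity, had 2, 30 and 130 counts in the control tumor cells and 66, 190 and 13 in TICs. Its log2 fold change of 0.48 had an interval from -2.32 to 3.29, and no window of its coding sequence was its own. Rps7, a Diamond-Blackfan gene, had 0, 79 and 16 counts against 20, 0 and 99. Rpl30 had 9, 70 and 0 counts against 51, 2 and 11, and Rpl36a 23, 19 and 88 against 24, 35 and 0. A list of genes mutated in Diamond-Blackfan anemia, an inherited failure of red cell production, held 18 members and was not checked for completeness. Of these 18, 15 were kept, 6 had a positive and 9 a negative log2 fold change, and 0 were called.

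A list of paralog pairs, to which Rpl13a and Rpl36a were added without a partner, held 11 members. Of these 11, 6 were kept and 0 were called by exactTest. Rps4x, the X-linked form of the S4 protein, had 922, 920 and 970 CPM in the control tumor cells and 910, 689 and 888 CPM in TICs, with no overlap between groups and a log2 fold change of -0.18 ± 0.27 (SE). Rps4l is annotated as a transcribed pseudogene and was no member. Rps27l, a paralog of Rps27 that is a target of p53, had 1017, 1314 and 1720 counts against 1675, 1540 and 712, while Rps27 itself failed the filter. Rpl3 had 68, 11 and 44 counts against 174, 39 and 166, and its muscle paralog Rpl3l had none.

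In 6 of the 67 members every TIC sample was below every other sample, among them Rpl18, Rpl37, Rplp0, Rps4x and Rps2, the last of which was kept through the control samples alone. In 0 members every TIC sample was above. That is 8.96% lower and 0% higher, where 7.55% of all genes kept were lower and 7.69% higher. The count of lower members varied from 4 to 23 as single samples were left out, with 4 without non-CD24+CD90+ replicate 1, 15 without replicate 2 and 10 without replicate 3. It was 23 without TIC replicate 1, 7 without TIC replicate 2 and 7 without TIC replicate 3. Of all genes kept in the same 6 settings, 12%, 11.8%, 12.4%, 15.6%, 12.8% and 11.9% were lower, and 66 members were kept without a control sample and 67 without a TIC sample. The count of higher members was 3, 1 and 0 without the respective non-CD24+CD90+ replicates and 1, 5 and 5 without TIC replicates 1, 2 and 3, where 12.2%, 12.1%, 11.6%, 14.3%, 13% and 13.1% of all genes were higher.

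The share of all counts in the 80 genes was 5.97%, 5.44% and 6.21% in non-CD24+CD90+ tumor cells and 6.13%, 4.85% and 4.04% in TICs. The means were 5.87% ± 0.392 and 5.0% ± 1.05 (SD, n = 3 each). The groups overlapped, TIC replicate 1 lay among the controls, and the difference of -0.871 percentage points was smaller than the SD of the TIC group. Without TIC replicate 3 the difference was -0.387 and without TIC replicate 1 it was -1.43 percentage points. Over the 40 abundant members, the median log2 deviation from the gene's mean was 0.16, -0.04 and 0.18 in the controls and 0.14, -0.13 and -0.34 in TICs. TIC replicate 3 was the lowest sample for 24 of the 40 genes and also the most uneven, with an SD of deviations of 0.394 against 0.181 to 0.242 in the other samples. Rps10, Rps24 and Rpl37a were picked after their values were seen. Rps10 had 504 CPM and Rps24 771 CPM in TIC replicate 3, against at least 1113 and 1400 CPM elsewhere, whereas Rpl37a had 91.3 CPM there and 37.1 to 71.6 CPM elsewhere. Mitochondrially encoded genes held 2.91%, 1.93% and 1.95% of all counts in non-CD24+CD90+ tumor cells and 3.21%, 3.51% and 5.01% in TICs. Every TIC sample was above every control, TIC replicate 3 was highest, and the part of library quality in these values was not tested.

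**Figure D4:**
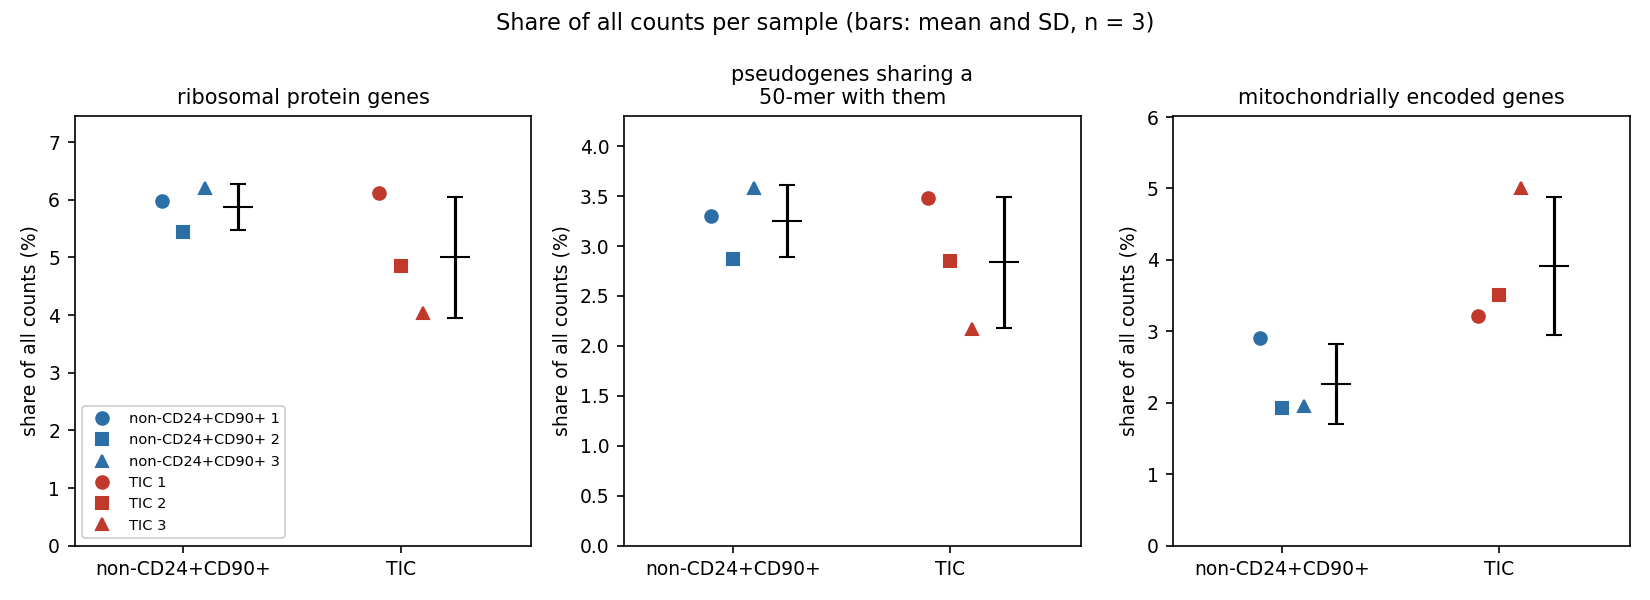
Share of all counts (%) per sample in the 80 ribosomal protein genes, in pseudogenes that share a 50-base stretch with them, and in mitochondrially encoded genes, for non-CD24+CD90+ tumor cells (blue) and TICs (red). Points are samples, bars give mean and SD over 3 samples; TIC replicate 3 has the lowest share in the first 2 panels, 4.04% and 2.17%, and the highest in the third, 5.01%.

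The 726 counted pseudogenes that share a 50-base stretch with a member held 3.30%, 2.87% and 3.58% of all counts in the control tumor cells and 3.49%, 2.85% and 2.17% in TICs, and TIC replicate 3 was again lowest. Of the 167 of them that were kept, exactTest called 0, with 5 at an unadjusted p below 0.05, the quasi-likelihood test 0 and DESeq2 1, and their median log2 fold change was -0.07. In 39 of the 80 members the pseudogenes sharing a stretch with it held more counts than the gene itself.

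Of 6 ribosome genes outside the naming rule, 5 were kept and 0 were called by any of the 3 tools. Rack1, a scaffold protein at the small subunit head, had 9537, 9943 and 10780 counts in the control tumor cells and 16749, 11973 and 7432 in TICs, a log2 fold change of 0.05 ± 0.304 (SE). Fau, which encodes S30 fused to a ubiquitin-like sequence, had at most 16 counts. Rpl7l1 had a log2 fold change of -0.60 with an adjusted p of 0.675 by exactTest, Rpl22l1 -0.12 and Rpl36al -0.11. Rps3a1, named after its counts were seen, encodes a small subunit protein but its symbol falls outside the rule. It had 5904 to 8675 counts and a log2 fold change of -0.03.

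Of 18 translation factors and other TOP mRNAs, all were kept, and 14 had a negative log2 fold change. The median was -0.18, and 22.2% were positive, against 49.7% of all genes kept. In 6 of the 18 (33.3%) every TIC sample was below every other sample, and in 0 above, against 7.55% and 7.69% of all genes kept. By exactTest 1 was called, as lower in TICs, where 0.189% of all genes kept were called lower. DESeq2 also called 1, where it called 2.5% of all genes kept. Eef1d, a subunit of the exchange factor that recharges eEF1A, had 5512, 7758 and 6096 counts in the control tumor cells and 4557, 3673 and 3382 in TICs. It fell by 0.89 ± 0.267 (SE) on the log2 scale with an adjusted p of 0.0765 by exactTest and 0.000294 by DESeq2, and it missed the threshold in the quasi-likelihood test with 0.138. Of 30 ribosome biogenesis genes 28 were kept and 0 called, with a median of -0.16. Of 77 mitochondrial ribosomal protein genes 70 were kept and 0 called, 35 with a positive and 35 with a negative log2 fold change and a median of 0.02. Of 8 snoRNA host transcripts 4 were kept and 0 called. In these 3 lists DESeq2 and the quasi-likelihood test also called 0, and the unadjusted p of exactTest was below 0.05 for 2 mitochondrial ribosomal protein genes, 0 biogenesis genes and 0 host transcripts.

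The regulators of ribosomal protein output did not pass the test either, with 14 of 16 kept and 0 called by any of the 3 tools. An unadjusted p below 0.05 was found for 0 by exactTest and for 1 by the quasi-likelihood test. Their median log2 fold change was 0.03. In 3 of the 14 (21.4%) every TIC sample was below every other sample, and in 1 (7.14%) above, against 7.55% and 7.69% of all genes kept. Myc, the transcription factor, had 23, 24 and 20 counts in the control tumor cells and 40, 25 and 35 in TICs. Mtor had 177, 186 and 231 counts against 515, 82 and 162, and Rptor, its partner in complex 1, 1221, 1622 and 1082 against 982, 855 and 1045. Larp1, which binds TOP mRNAs, had 2919 to 3893 counts and a log2 fold change of -0.15 with an interval from -0.69 to 0.39. The other regulators kept had log2 fold changes from -0.92 (Mdm2) to 1.23 (Eif4ebp1).

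The annotated starts of the members were searched for the TOP motif. Promoter windows from RefSeq on GRCm38.p6 were at hand for 60 of the 80 members, 72 windows in all. On the sense strand, 13 of the 72 (18.1%) had a C at the annotated start followed by at least 4 bases that are each C or T, against 2.51% of all 32851 windows and 0 of 74 windows of mitochondrial ribosomal protein genes. Within 5 bases of the start such a run began in 41.7% of member windows and 18.3% of all windows. The lines below give 10 bases before and 20 bases from the start for 5 of the 13. Capitals mark the pyrimidine run from the start onward, and pyrimidines before the start are in lower case. These 5 were chosen to span long and short runs, counted from the start, and to include both subunits.
Rpl15: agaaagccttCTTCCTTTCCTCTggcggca
Rpl35: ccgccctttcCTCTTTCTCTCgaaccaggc
Rps10: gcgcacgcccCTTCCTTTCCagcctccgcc
Rps6: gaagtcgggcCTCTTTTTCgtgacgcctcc
Rplp2: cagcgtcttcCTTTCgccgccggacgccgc

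These windows lie at chr14:18270967-18270996 (minus strand) for Rpl15, chr2:39005112-39005141 (minus) for Rpl35, chr17:27635225-27635254 (minus) for Rps10, chr4:86857348-86857377 (minus) for Rps6 and chr7:141447641-141447670 (plus) for Rplp2. Counted from the annotated start, the runs were 13, 11, 10, 9 and 5 bases long. In each of these lines pyrimidines also stood directly before the start, so the whole stretch is longer than the capitals. A match is a feature of the annotated start and says nothing of translation in these cells. Of the 13 genes with the run at their start, 11 were kept, and their median log2 fold change was -0.04, with 5 positive and 6 negative.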

How the data were processed

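RNA-seq counts of 3 TIC and 3 non-CD24+CD90+ samples were analysed. The authors used Trimmomatic 0.32 for trimming, STAR 2.4.0 for alignment to GRCm38 and SAMtools 1.1 to drop non-unique alignments, and deposited raw counts per Ensembl gene from HTSeq. The strand setting and annotation release are not given in the sources used here. Symbols came from GENCODE M21 and matched 40340 of 41388 genes. Replicates were numbered in accession order. Genes above 1 CPM in 3 or more samples were fitted together in edgeR 4.0.16 (R 4.3.3) with TMM factors, tagwise dispersions and exactTest, and p-values were adjusted by Benjamini-Hochberg over all 12192 genes at a threshold of 0.1. Standard errors and 95% intervals came from the negative binomial fit with these dispersions. The tagwise dispersions are shrunk toward the common dispersion of all genes kept, 0.678, so the standard errors do not measure the scatter of the 3 samples alone. CPM values are TMM-normalized, except the marker sums, which are scaled by total counts alone. DESeq2 1.42.0, the quasi-likelihood test, other normalizations and filters, and each sample left out in turn were alternatives. Coding sequences were compared with pseudogene transcripts by BLAST 2.17.0, with pseudogenes on chromosome 18 left out. Genes named in the text were the 5 highest and 5 lowest in fold change at 50 CPM or more, the 5 highest per length, the stalk, 5S particle, paralogs and Rps6, members with a sample at 0 although the others averaged at least 20 counts, and members that failed the filter. Some genes that this rule names are not reported here. The members and lists were chosen with earlier results of these data known.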

Additional observations from a re-analysis of the deposited data

How the results depend on the processing

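The count of ribosomal protein genes called was 0 under every setting run, namely the quasi-likelihood test, DESeq2, RLE size factors, library size alone, TMM without the member genes, no filter, at least 10 counts in every sample, an adjusted p below 0.05 and each sample left out. The median log2 fold change of the members stayed negative, from -0.20 (library size alone) to -0.10 (at least 10 counts in every sample) with all samples and from -0.26 to -0.07 with 1 left out. It was -0.11 over the 11 kept members with at least 50% of their coding windows their own, a setting added after the data were seen. RLE size factors moved the median of all genes from -0.01 to 0.02 and library size alone to -0.06. The number of members with all TIC samples below all others was 2 of the 53 members kept when at least 10 counts were required in every sample, where 7.39% of all genes were below. With 1 sample left out it ranged from 4 to 23 of 66 or 67 members, where 11.8% to 15.6% of all genes were below, and from 0 to 5 for members above, where 11.6% to 14.3% of all genes were above. The difference in the share of counts ranged from -1.43 to -0.387 percentage points with 1 sample left out. In 161 values of 24 named members under settings with all samples, 0 changed sign, whereas 13 of 141 with 1 sample left out did. The log2 fold changes then ranged from -1.85 to 1.87 for Rpl30, from -0.72 to 2.48 for Rps6, from -1.74 to 2.14 for Rps7, from -0.28 to 0.15 for Rpl32, from -0.39 to 0.0385 for Rps27l, from -0.0801 to 0.65 for Rpl39, from -0.21 to 0.0397 for Rpl8 and from -0.43 to 0.00857 for Rplp1. The cause was not tested. No paired analysis was possible because the labels number the samples 1 to 6 across both groups and share no replicate number. Both groups may have been sorted from the same mice, which the sources used here do not state outright, and no label pairs the samples. The 27 kept members below 50 CPM were too variable for a 2-fold difference to be detectable with 3 samples per group, and the part of depth in this was not tested.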
